A study of Mus musculus with 6 samples.

Results

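Cycling T cells are the T cells of the tumor that were caught while preparing for or carrying out cell division. They were chosen here by measured values. A barcode, which stands for 1 droplet, had to show 600 to 4000 genes and at most 10% mitochondrial transcripts. It had to hold at least 2 UMIs (unique molecular identifiers, each counting 1 captured RNA molecule) of Cd3d, Cd3e and Cd3g together and at least 2 UMIs of Mki67 and Top2a together. It could hold no UMI of the B cell genes Cd79a, Cd79b and Ms4a1 and at most 1 UMI of the macrophage genes C1qa, C1qb and C1qc. The rule found 791 cycling T cells among 3851 T cells, 30067 barcodes of the same quality and 52899 deposited barcodes. The other 3060 T cells had fewer than 2 Mki67 and Top2a UMIs.

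The cells came from B16-F10 tumors, a transplanted mouse melanoma grown in female C57BL/6 mice that were 6 to 10 weeks old. CD45+ immune cells were isolated with magnetic beads from tumors that had been dissociated, frozen and thawed, and were profiled as 5′ droplet libraries. From day 7 all mice were given αPD-1 antibody, 3 doses a week of 150 μg each, so that every sample was under checkpoint blockade. The 3 αPD-1 + corin samples came from mice that also received 200 μg of corin daily from day 6, and the 3 αPD-1 samples carried no corin. Corin inhibits the LSD1 demethylase and the HDAC1 deacetylase of the CoREST repressor complex. Treatment arms held 10 mice each. How many of them, or which, contributed to a sample is not given by the labels. The p-values therefore measure the spread between these samples, which could be partly technical. Cycling T cells numbered 74, 92 and 69 in αPD-1 samples 1 to 3 and 55, 135 and 366 in αPD-1 + corin samples 1 to 3. Sample 3 of αPD-1 + corin thus gave the most cells of any sample.

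A T cell that has met its antigen leaves quiescence, and D-type cyclins with their kinases carry it through G1. Replication factors such as the MCM helicase and PCNA copy the DNA in S phase, and Cyclin A2, Cyclin B1 and CDK1 drive the cell into mitosis. Checkpoint blockade acts largely through CD8 T cells, which can divide again once the PD-1 brake is released, whereas dividing regulatory T cells are a separate population that restrains the response.

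The 5 genes that mark the cells are Mki67, which encodes the Ki-67 protein of dividing cells, Top2a, the topoisomerase that untangles replicated DNA, Birc5, a subunit of the chromosomal passenger complex, Ccna2, which encodes Cyclin A2, and Ube2c, a ubiquitin-conjugating enzyme that serves the anaphase-promoting complex. The letters upstream of their start sites are shown because the markers and the mitosis genes form the group that was compared between treatments further on. The 200 bases before the start of 3 of them, taken from RefSeq and placed on GRCm39 by an exact match, are printed with 2 kinds of letters in capitals, the CCAAT box (CCAAT, or ATTGG on the other strand) and the cell cycle genes homology region (TTTGAA, or TTCAAA on the other strand). Where both strands match, as at one place before Ube2c, the matches overlap.
Top2a, chr11:98915016-98915215, minus strand: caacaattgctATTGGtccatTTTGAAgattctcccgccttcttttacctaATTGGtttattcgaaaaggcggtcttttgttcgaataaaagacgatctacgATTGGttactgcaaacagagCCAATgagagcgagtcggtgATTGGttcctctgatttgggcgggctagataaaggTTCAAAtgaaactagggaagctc
Ube2c, chr2:164611649-164611848, plus strand: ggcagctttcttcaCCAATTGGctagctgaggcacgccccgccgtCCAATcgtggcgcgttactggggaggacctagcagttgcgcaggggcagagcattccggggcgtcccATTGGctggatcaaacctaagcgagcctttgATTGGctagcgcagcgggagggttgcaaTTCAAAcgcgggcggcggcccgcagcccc
Mki67, chr7:135318109-135318308, minus strand: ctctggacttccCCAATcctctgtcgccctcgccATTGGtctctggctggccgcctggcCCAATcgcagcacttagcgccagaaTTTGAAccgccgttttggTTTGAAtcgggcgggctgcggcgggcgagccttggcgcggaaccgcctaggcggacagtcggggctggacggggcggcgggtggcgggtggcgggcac
In the 200 bases before Birc5, at chr11:117739863-117740062 on the plus strand, neither set of letters was found, and Ccna2 was not matched in the promoter table. Of all 27025 promoters, 34.5% held a CCAAT box and 16.3% a cell cycle genes homology region in the 250 bases before the start, and 5.73% held both. Among the 48 matched promoters of 57 mitosis genes, 72.9% held a CCAAT box, 29.2% the homology region and 27.1% both. For the 31 matched of 40 DNA replication genes the shares were 61.3%, 12.9% and 9.68%, and for the 26 matched of 30 cytotoxic effector genes they were 30.8%, 15.4% and 0%. These matches describe letters and not bound sites.

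The label was checked against genes that the rule did not use. Trac encodes the constant region of the α chain of the T cell receptor. It lay between 235 and 429 CPM (UMIs of the gene scaled to a common total) in the cycling T cells of the 6 samples, and Trbc2 between 161 and 237 CPM. Birc5 lay between 148 and 274 CPM, Ccna2 between 119 and 175 CPM and Ube2c between 274 and 526 CPM. In T cells with no Mki67 or Top2a UMI, Birc5 reached at most 19.3 CPM, Ccna2 4.74 CPM and Ube2c 17.6 CPM in any sample. Just outside the limit, the 454 T cells with exactly 1 Mki67 or Top2a UMI held a UMI of Birc5, Ccna2 or Ube2c in 10.4% to 17.9% of cells per sample. Just inside it, the 195 cells with exactly 2 UMIs held one in 29.4% to 38.8%, and the 596 cells with 3 or more in 73.7% to 90.1%. Cells at the limit of 2 UMIs made up 27.0%, 28.3% and 18.8% of the cycling T cells with αPD-1 alone and 30.9%, 25.2% and 23.2% with αPD-1 + corin.

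Cycling T cells were sampled more deeply than other T cells, with medians of 4912 to 7966 UMIs per cell against 2179 to 3673. The limit of 4000 genes left out 14, 36 and 12 further barcodes with αPD-1 alone and 7, 69 and 124 with αPD-1 + corin that met the rest of the rule. The whole libraries held 52281422 to 84276739 UMIs, and 299 barcode sequences were shared between pairs of samples, 10 to 32 in a pair. Intervals and limits given for shares of cells cover counting error only.

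Transcripts of neutrophils and other cell types were found in a larger share of the cycling T cells in every αPD-1 + corin sample than in any αPD-1 sample. S100a8 and S100a9, which encode the calprotectin of neutrophils, reached 10 or more UMIs in 0 of 74, 0 of 92 and 0 of 69 cycling T cells under αPD-1 alone, which allows shares of up to 4.05%, 3.26% and 4.35%. The same was true of 29.1%, 37.8% and 3.28% of cycling T cells with αPD-1 + corin. More than 2 UMIs in total of S100a8, S100a9, Lyz2, Apoe, Spp1, Pmel, Mlana, Dct, Tyrp1, Sparc and Col1a1 were seen in 20.3%, 18.5% and 14.5% against 54.5%, 62.2% and 27.0% of cycling T cells, without overlap between the groups. Over the whole lists, the summed level of 12 neutrophil genes was 120 to 277 CPM against 870 to 8065 CPM, that of 18 macrophage genes 1014 to 1671 CPM against 1296 to 5120 CPM and that of 12 melanocyte genes 77.0 to 191 CPM against 93.4 to 1051 CPM. The B cell genes that the rule barred were at 0, whereas the whole list of 18 B cell genes, which includes class II antigen presentation genes, gave 1743 to 3060 CPM against 2872 to 10981 CPM. Counted over all members of a list, 10 of the 12 neutrophil genes, 4 of the 18 macrophage genes and 2 of the 12 melanocyte genes were higher in every αPD-1 + corin sample than in any αPD-1 sample. Of the 7205 genes tested further on, 7.68% were higher in this way. That share was taken after a filter on low counts and a scaling between samples, and the list counts were not. This difference between the treatments was also seen in the other T cells. Among them, 0.967%, 0.366% and 0.251% held 10 or more S100a8 and S100a9 UMIs with αPD-1 alone. With αPD-1 + corin the shares were 18.1%, 38.1% and 3.97%. More than 2 UMIs of the other-lineage genes were held by at most 17.6% in any αPD-1 sample. The lowest such share with αPD-1 + corin was 22.4%. Shares and list medians without the barcodes that held more than 2 such UMIs, a step added after the data were seen, are given beside the results they bear on.

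The first comparison asks whether a larger share of T cells was cycling when corin was added to αPD-1. Cycling cells made up 12.5%, 14.4% and 14.8% of T cells with αPD-1 alone and 18.5%, 25.3% and 27.7% with αPD-1 + corin. All 3 αPD-1 + corin samples lay above all 3 αPD-1 samples. The 95% Wilson intervals were 10.1% to 15.4%, 11.9% to 17.3% and 11.8% to 18.3% for αPD-1 and 14.5% to 23.3%, 21.8% to 29.1% and 25.3% to 30.2% for αPD-1 + corin, so that sample 1 of αPD-1 + corin overlapped the αPD-1 samples in counting error. The means were 13.9% ± 1.21 (SD, n = 3) and 23.8% ± 4.79 (SD, n = 3), a difference of 9.91 percentage points (two-sided exact permutation p = 0.1, the smallest that 3 against 3 samples allow, and adjusted p = 0.4 by Benjamini-Hochberg over 8 shares). Without barcodes with more than 2 UMIs of other lineages the shares were 11.4%, 13.1% and 15.2% against 16.3%, 21.8% and 26.5%, still without overlap.

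A rule that counts UMIs finds more cycling cells where cells are read more deeply. Every barcode was therefore thinned to a fixed number of UMIs, shallower barcodes were left out, and the whole rule was applied again, the Cd3 limit included. At 2000 UMIs this left 307 to 520 T cells per sample with αPD-1 alone, in place of 467 to 639, and 139, 387 and 1078 with αPD-1 + corin, in place of 298, 534 and 1322. Of these, 10.5%, 10.2% and 14.3% with αPD-1 alone and 14.4%, 15.2% and 18.6% with αPD-1 + corin held 2 Mki67 and Top2a UMIs. At 1000 UMIs 4.47%, 4.52% and 6.72% of 447, 487 and 357 T cells were cycling against 4.85%, 6.51% and 7.32% of 165, 307 and 1052, which overlapped. With 1 UMI asked for at that depth the shares were 12.5%, 11.9% and 12.6% against 18.8%, 14.01% and 22.4%, and did not overlap. The size of the difference thus moved with both the depth and the number of UMIs asked for. With at least 2 UMIs it was 9.91 percentage points with all UMIs used, 4.43 at 2000 UMIs and 0.989 at 1000 UMIs. With at least 1 UMI at 1000 UMIs it was 6.06 points.

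**Figure D1:**
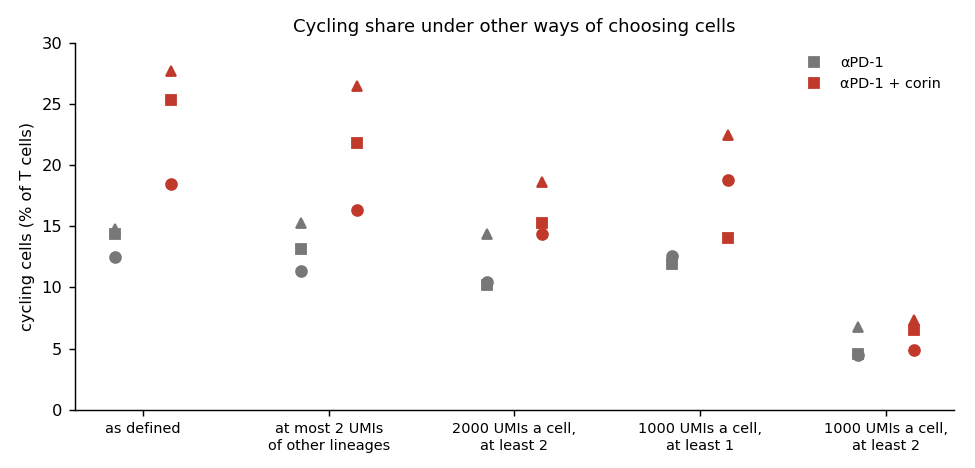
Cycling cells as a percentage of T cells in each sample, under the rule as defined, without barcodes with transcripts of other lineages, and with each cell thinned to 2000 or 1000 UMIs (circle, square and triangle are samples 1, 2 and 3). The groups overlap only at 1000 UMIs with at least 2 Mki67 and Top2a UMIs, where the difference of the means is 0.989 percentage points.

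As a background for these shares, 2 or more Mki67 and Top2a UMIs were also found in 15.2% of 1422 macrophage barcodes under αPD-1 alone and 7.95% of 5608 under αPD-1 + corin. The shares were 6.93% of 2466 B cell barcodes and 3.25% of 154. Among neutrophils, which do not divide, it was 2.11% of 855 barcodes with αPD-1 + corin, and 0 of 11 with αPD-1 alone. Median depths were 4502.5 and 3982.5 UMIs for macrophages and 2472 UMIs for the neutrophils under αPD-1 + corin.

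The T cells were then split by lineage. CD8 T cells had a UMI of Cd8a or Cd8b1 and none of Cd4 or Foxp3, regulatory T cells had a UMI of Foxp3, the master regulator of that lineage, and none of the CD8 genes, and conventional CD4 T cells had Cd4 without Foxp3 or CD8 genes. Of the 791 cycling T cells, CD8 T cells were the most frequent in every sample. Among CD8 T cells, 14.9%, 21.4% and 16.4% were cycling with αPD-1 alone and 27.6%, 36.1% and 34.0% with αPD-1 + corin. The lowest αPD-1 + corin sample lay above the highest αPD-1 sample. The means were 17.6% ± 3.38 and 32.6% ± 4.39 (SD, n = 3 each), 15.0 percentage points apart (exact permutation p = 0.1, adjusted p = 0.4). Without barcodes with transcripts of other lineages the shares were 13.5%, 20.0% and 17.0% against 27.0%, 29.5% and 32.9%. At 1000 UMIs per cell they were 4.73%, 6.28% and 5.52% against 6.67%, 5.94% and 9.34%, which overlapped, and with at least 1 UMI at that depth 13.6%, 15.2% and 11.03% against 22.2%, 17.8% and 24.9%, which did not.

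Among regulatory T cells, 26.7%, 25.0% and 34.5% were cycling with αPD-1 alone and 18.8%, 23.4% and 25.0% with αPD-1 + corin, over 16 to 77 such cells in a sample. The groups met at 25.0%, with means of 28.7% ± 5.06 and 22.4% ± 3.24 (SD, n = 3 each) that were -6.34 percentage points apart (exact permutation p = 0.2, adjusted p = 0.533). They lay apart in 4 of 16 alternatives, among them a mitochondrial limit of 5% (-9.07 points, exact permutation p = 0.1) and the removal of top Scrublet doublet scores (-7.53 points, exact permutation p = 0.1). Conventional CD4 T cells gave 12.3%, 0% and 16.3% against 10.3%, 15.6% and 10.0%, with 0 of 69 cells in αPD-1 sample 2, which allows up to 4.35% (exact permutation p = 0.9). The cycling share of CD8 T cells minus that of regulatory T cells was -11.8, -3.64 and -18.1 percentage points with αPD-1 alone and 8.89, 12.7 and 8.95 with αPD-1 + corin. With all UMIs used, cycling was thus more frequent among regulatory than CD8 T cells in each αPD-1 sample and less frequent in each αPD-1 + corin sample, a change of 21.3 points (exact permutation p = 0.1, the smallest possible, in a comparison chosen after the values were seen). The first of these orders was lost after thinning. At 1000 UMIs 0 of 16, 0 of 13 and 3 of 11 regulatory T cells were cycling with αPD-1 alone, beside 4.73%, 6.28% and 5.52% of CD8 T cells, and at 2000 UMIs 11.8%, 5.26% and 15.8% beside 10.6%, 14.8% and 18.4%, so that the regulatory share was the higher in 1 of 3 samples at either depth. With αPD-1 + corin it stayed the lower in each sample at both depths, over 4 to 36 regulatory T cells.

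**Figure D2:**
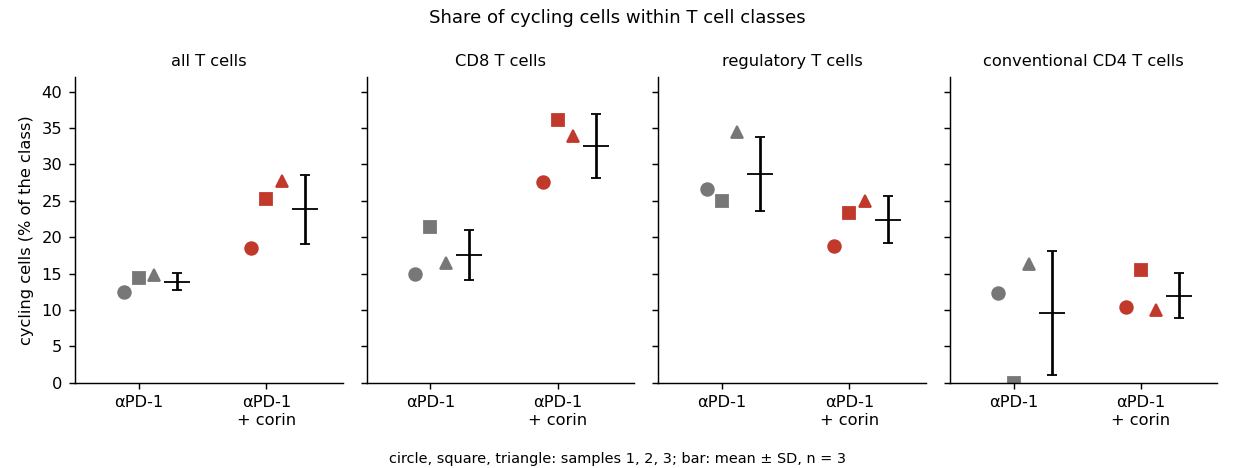
Cycling cells as a percentage of all T cells, CD8 T cells, regulatory T cells and conventional CD4 T cells in each sample, with the mean ± SD of 3 samples per group. The groups are apart for all T cells and for CD8 T cells, and overlap or meet for regulatory and conventional CD4 T cells.

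The makeup of the cycling T cells was compared in the same way. CD8 T cells made up 55.4%, 78.3% and 59.4% of cycling T cells with αPD-1 alone and 61.8%, 61.5% and 89.6% with αPD-1 + corin, which overlapped (64.4% ± 12.2 against 71.0% ± 16.1, n = 3 each, exact permutation p = 0.5). Regulatory T cells made up 10.8%, 8.70% and 14.5% against 10.9%, 13.3% and 1.09% (exact permutation p = 0.7). Conventional CD4 T cells made up 13.5%, 0% and 11.6% against 5.45%, 5.19% and 0.820% (exact permutation p = 0.4). Sample 3 of αPD-1 + corin held 328 CD8 T cells among its 366 cycling T cells, with 4 regulatory and 3 conventional CD4 T cells.

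Cycling T cells were next set against other T cells of the same sample, with each cell thinned to 1000 UMIs so that depth did not decide whether a lineage gene was seen. CD8 T cells were 47.9% of cycling and 33.8% of other T cells in αPD-1 sample 1, 60.4% and 36.4% in sample 2, and 36.2% and 36.5% in sample 3. With αPD-1 + corin they were 34.5% and 22.8%, 35.6% and 24.7%, and 65.0% and 50.1%. The CD8 share was higher among cycling cells in 5 of 6 samples, by 12.6 percentage points on average (SD of the difference 7.86, exact sign-flip permutation p = 0.0625, adjusted p = 0.125 over 2 tests). Without thinning it was higher in 6 of 6 samples, by 19.9 points (exact sign-flip permutation p = 0.03125, the smallest that 6 samples allow). The regulatory share at 1000 UMIs was 2.82% ± 2.34 in cycling and 3.74% ± 3.05 in other T cells (SD, n = 6, exact sign-flip permutation p = 0.625).

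**Figure D3:**
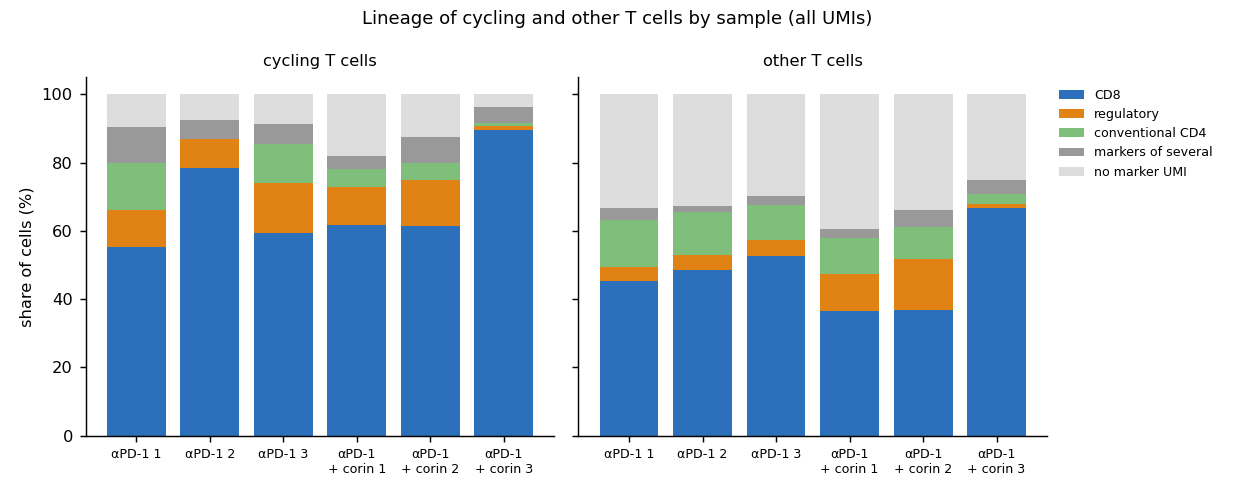
Lineage of cycling T cells (left) and other T cells (right) in each sample, in percent of cells and with all UMIs used. CD8 T cells are the largest named lineage in every bar, and the share without any lineage UMI is higher among the other T cells, which held fewer UMIs per cell.

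The position in the cycle was read from the UMIs of the 40 DNA replication and 57 mitosis genes. DNA replication genes gave 40.9%, 41.1% and 38.7% of these UMIs with αPD-1 alone and 43.2%, 39.2% and 41.8% with αPD-1 + corin (40.2% ± 1.37 against 41.4% ± 2.03, n = 3 each, exact permutation p = 0.4). The groups overlapped, with a difference of 1.15 percentage points. With no upper limit on genes they lay apart, at 39.9% to 40.6% against 41.2% to 41.8% (exact permutation p = 0.1). Within cycling CD8 T cells the shares were 39.2%, 40.8% and 37.1% against 39.1%, 38.0% and 41.4%. Within cycling regulatory T cells, of which a sample held 4 to 18, they were 45.3%, 34.9% and 39.2% against 55.2%, 44.0% and 58.7%, which overlapped.

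For single genes, the UMIs of the cycling T cells were summed per sample and the groups were compared with edgeR, with samples in place of cells as replicates. No gene among 7205 tested passed the adjusted p threshold of 0.05, which is 0.0% of the genes tested, and 609 had an unadjusted p under 0.05. DESeq2 called 51 genes higher and 1 lower, and edgeR called 212 higher and 9 lower without αPD-1 + corin sample 3, 440 higher and 75 lower with no filter on low counts, and 1 gene without the barcodes holding transcripts of other lineages. That 1 gene was Gzma, which encodes the protease granzyme A. As a description, 7.68% of the genes tested were higher in every αPD-1 + corin sample than in any αPD-1 sample, and 7.19% were lower in every one. The lists are given by their median log2 fold change, to be read beside the median of 0.01 over all genes tested, and by the number of members that lay apart in this way. Gene levels are CPM after TMM scaling.

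Of the 5 markers, Mki67 and Top2a chose the cells, so their levels within the cells are given as a description with no test. Mki67 was at 804, 620 and 713 CPM with αPD-1 alone and 534, 549 and 519 CPM with αPD-1 + corin (log2 fold change -0.42). Top2a was at 695, 656 and 744 CPM against 514, 500 and 547 CPM (log2 fold change -0.42). Of the 3 markers that the rule did not use, Ube2c and Ccna2 lay lower without overlap and Birc5 overlapped, and none passed the test. Ube2c was at 530, 431 and 413 CPM against 303, 340 and 404 CPM, and Ccna2 at 177, 146 and 158 CPM against 143, 127 and 133 CPM. Birc5 was at 276, 235 and 202 CPM against 163, 228 and 218 CPM. The median log2 fold change over all 5 was -0.38.

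The mitosis list does not hold the 5 markers, and most of its genes had negative fold changes. All 57 of its genes were tested, 6 had a positive fold change, the median was -0.27, and 16 were lower and 1 higher in every αPD-1 + corin sample. These are 28.1% and 1.75% of the list, beside 7.19% and 7.68% of all genes. Cdk1, the kinase that drives entry into mitosis, was at 142, 116 and 115 CPM against 110, 112 and 111 CPM. Ccnb1, which encodes its partner Cyclin B1, was at 69.9, 58.8 and 69.6 CPM against 50.03, 71.9 and 56.7 CPM and overlapped. Mad2l1, of the spindle checkpoint, was at 120, 120 and 110 CPM against 56.7, 78.7 and 81.0 CPM, and Anln, the anillin of the contractile ring, at 34.9, 43.4 and 55.2 CPM against 10.0, 22.4 and 31.2 CPM. Cks1b, a subunit of cyclin-dependent kinase complexes, was the 1 gene higher throughout, at 169, 154 and 154 CPM against 207, 194 and 202 CPM. Mad2l1, Anln and Cks1b were picked after their values were seen. Without barcodes with transcripts of other lineages the median of the list was -0.12 and that of the markers -0.17, and with no upper limit on genes they were -0.46 and -0.50. The transcripts of other cell types described above were higher with αPD-1 + corin, and their part in the remaining difference was not tested.

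Genes of DNA replication had a median of -0.19, with 6 of 37 above 0 and 5 lower and none higher in every αPD-1 + corin sample. The 6 subunits of the MCM helicase overlapped between the groups, with log2 fold changes from -0.32 for Mcm4 to 0.17 for Mcm2. Mcm2 was at 83.5, 74.2 and 72.0 CPM with αPD-1 alone and 113, 82.6 and 73.7 CPM with αPD-1 + corin. Mcm3, Mcm5, Mcm6 and Mcm7 had log2 fold changes of 0.01, -0.03, -0.21 and -0.16. Pcna, the sliding clamp of the replication fork, was at 458, 372 and 449 CPM against 373, 341 and 380 CPM.

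The G1/S drivers had a median of -0.06 over 14 genes tested and the brakes of the cycle -0.04 over 18. Ccnd2 and Ccnd3, which encode D-type cyclins of lymphocytes, had log2 fold changes of -0.04 and -0.33 with overlap. Cdkn1a, which encodes the kinase inhibitor p21, was at 111, 57.4 and 154 CPM with αPD-1 alone and 377, 335 and 137 CPM with αPD-1 + corin. Sample 3 of αPD-1 + corin lay within the αPD-1 range, and the log2 fold change of 1.39 (SE 0.41) did not pass (edgeR adjusted p = 0.382). It passed without that sample, at a log2 fold change of 1.76 (edgeR adjusted p = 0.00552), in DESeq2 at 1.40 (adjusted p = 0.0349) and with no filter on low counts. Without barcodes with transcripts of other lineages it was 0.68 (edgeR adjusted p = 0.747). Cdkn1b, which encodes p27, was at 66.0, 63.0 and 69.6 CPM against 83.4, 60.3 and 61.6 CPM.

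Genes of glycolysis and growth were the list with the highest share of positive fold changes among those of T cell state. Of 28 genes tested, 24 were above 0, the median was 0.31, and 8 were higher and none lower in every αPD-1 + corin sample, which is 28.6% of the list beside 7.68% of all genes. Slc2a3, a glucose transporter, was at 52.4, 53.2 and 57.6 CPM against 120, 208 and 70.1 CPM, and Hk2, the first enzyme of glycolysis, at 25.2, 18.2 and 16.8 CPM against 63.4, 48.6 and 25.9 CPM. Ldha, which makes lactate, was at 1149, 1041 and 900 CPM against 1197, 1362 and 1273 CPM. These 3 genes were picked after their values were seen. Their groups did not overlap, and none passed the test. Without barcodes with transcripts of other lineages the median was 0.18.

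Cytotoxic effector genes had a median of 0.31, with 19 of 28 above 0 and 1 apart, and the median was -0.04 without αPD-1 + corin sample 3 and 0.088 with no upper limit on genes. Gzmb, which encodes granzyme B, was at 967, 932 and 384 CPM with αPD-1 alone and 920, 810 and 1674 CPM with αPD-1 + corin. Prf1, which encodes perforin, was at 278, 465 and 262 CPM against 66.7, 464 and 631 CPM, and Ifng, the interferon of effector T cells, at 295, 430 and 235 CPM against 76.7, 261 and 556 CPM. For all 3 the groups overlapped, and αPD-1 + corin sample 3 had the highest value. Gzma stood apart at 11.6, 9.80 and 7.20 CPM against 86.7, 34.0 and 47.8 CPM, from 6, 7 and 3 UMIs against 26, 35 and 118 UMIs (log2 fold change 2.37, SE 0.42, edgeR adjusted p = 0.200). Over the alternatives its log2 fold change was 0.54 to 3.50 and the adjusted p reached 0.708. It was lowest, at 0.54 (edgeR adjusted p = 0.688), when 1 Mki67 or Top2a UMI was enough, and it passed without the barcodes holding transcripts of other lineages (2.94, edgeR adjusted p = 0.0360), in DESeq2 (2.46, adjusted p = 0.00353), with no filter on low counts, with the replicate block (2.43, edgeR adjusted p = 0.0481) and without αPD-1 + corin sample 3 (2.40, edgeR adjusted p = 0.0186). Granzyme A is also made by NK cells. The other 11 listed NK genes together reached 75.2 to 135 CPM against 153 to 253 CPM in the cycling T cells, and their part in the result was not tested.

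Inhibitory receptors and related genes had a median of -0.15, with 7 of 19 above 0, and ran from -0.35 to 0.024 over the alternatives. Pdcd1, which encodes the target of the antibody, was at 214, 363 and 235 CPM against 113, 227 and 292 CPM. Lag3 was at 151, 190 and 120 CPM against 16.7, 85.5 and 180 CPM, and Havcr2, which encodes TIM-3, at 134, 190 and 156 CPM against 90.0, 115 and 192 CPM. Tox, a factor of exhausted T cells, was at 480, 771 and 809 CPM against 250, 497 and 587 CPM. All 4 overlapped, and αPD-1 + corin sample 1 was the lowest of the 6 samples for each. Before TMM scaling, Cd3d, Cd3e, Cd3g and Trac were lowest in that sample too, whereas Trbc2 and Ptprc were not. Cd3e was at 298 CPM there against 605, 728 and 648 CPM with αPD-1 alone. In that sample 54.5% of cycling T cells held more than 2 UMIs of other lineages. The part of this in the low values was not tested. Ctla4 was at 425, 427 and 372 CPM against 240, 281 and 305 CPM without overlap (log2 fold change -0.56, SE 0.15, edgeR adjusted p = 0.355).

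Naive and memory genes had the lowest median among the lists of T cell state, -0.44, with 2 of 16 above 0 and 3 lower in every αPD-1 + corin sample. Tcf7, which encodes the factor TCF-1 of stem-like T cells, was at 165, 50.4 and 76.8 CPM against 33.4, 32.1 and 19.4 CPM (log2 fold change -1.87, SE 0.43, edgeR adjusted p = 0.292), and it passed in DESeq2 at -1.84 (adjusted p = 0.00805). Lef1, a related factor, was at 157, 64.4 and 81.6 CPM against 60.03, 40.8 and 28.0 CPM. Il7r, the receptor of resting T cells for IL-7, was at 62.1, 29.4 and 60.02 CPM against 63.4, 39.9 and 31.2 CPM and overlapped. For Tcf7 and Lef1 the groups were apart.

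Of the other lists, regulatory T cell genes had a median of -0.17 over 17 genes, IL-2 family receptors and signalling 0.03 over 17, and interferon response genes -0.23 over 38, with 5 lower in every αPD-1 + corin sample. With no upper limit on genes the interferon median was 0.19, with 26 of 38 genes above 0. Over all alternatives the medians ran from -0.36 to 0.19 for interferon response, -0.31 to 0.07 for regulatory T cell and -0.075 to 0.17 for IL-2 family genes, so none of the 3 kept its sign. Foxp3 was at 38.8, 28.0 and 45.6 CPM against 33.4, 58.3 and 6.48 CPM and Cd4 at 91.3, 25.2 and 86.4 CPM against 33.4, 39.9 and 17.4 CPM. Cd8a was at 375, 626 and 358 CPM against 230, 357 and 591 CPM and Cd8b1 at 462, 627 and 341 CPM against 280, 356 and 572 CPM. Il2ra, the high-affinity IL-2 receptor chain, had a log2 fold change of 0.42 and Ikzf2, a factor of regulatory T cells, -0.50, both with overlap. Genes of the CoREST complex, the target of corin, had a median of -0.09 over 11 genes (-0.10 to 0.086 over the alternatives), and none lay apart. Kdm1a, which encodes LSD1, was at 75.7, 84.0 and 88.8 CPM against 50.03, 95.3 and 97.6 CPM, Rcor1, which encodes CoREST, at 81.5, 75.6 and 96.0 CPM against 86.7, 89.4 and 87.9 CPM, and Hdac1 and Hdac2 had log2 fold changes of -0.09 and 0.22. Stress and dissociation genes had a median of 0.07 over 20.

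Among genes of other cell types, 5 of 12 neutrophil and 13 of 18 macrophage genes passed the filter on low counts. S100a9 and S100a8, which were at or near 0 UMIs under αPD-1 alone, passed it through the αPD-1 + corin samples. S100a9 held 0, 0 and 0 UMIs in the cycling T cells under αPD-1 alone and 695, 2904 and 465 in those of αPD-1 + corin, at least 285-fold higher in mean CPM when each αPD-1 library is set to a floor of 3 counts. In other T cells S100a9 held 166, 29 and 4 UMIs against 1775, 11741 and 1216. Cxcl2, a neutrophil chemoattractant, held 41, 38 and 72 UMIs against 1097, 3598 and 1178 in cycling T cells. The lowest edgeR adjusted p over all genes was 0.159, reached by S100a8, Cxcl2, Il1b and S100a9.

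Within cycling CD8 T cells alone, no gene among 6120 passed in edgeR, which is 0.0% of the genes tested, and 448 had an unadjusted p under 0.05. DESeq2 called 35 genes, all higher, and edgeR called 146 higher and 9 lower without αPD-1 + corin sample 3. As a description, 7.52% of genes were higher and 6.16% lower in every αPD-1 + corin sample. The median of the mitosis list was -0.19, with 10 of 54 genes lower and 1 higher in every αPD-1 + corin sample, and that of the DNA replication list -0.13, with 6 of 35 lower. Mki67 was at 645, 603 and 720 CPM against 554, 552 and 534 CPM and Top2a at 625, 672 and 765 CPM against 583, 511 and 561 CPM, again as a description of genes that chose the cells. Glycolysis and growth genes had a median of 0.28, with 23 of 27 above 0. The naive and memory median of -0.15 was nearer to 0 than in all cycling T cells, with Tcf7 at 77.3, 36.1 and 45.2 CPM against 35.0, 33.4 and 17.8 CPM. Cytotoxic effector genes had a median of 0.10 over 27 genes tested. None of them lay apart, and none had a log2 fold change above 0.68. The list held 28 tested genes in all cycling T cells, and no value of Gzma is given for cycling CD8 T cells. Whether the 2.37 of Gzma in all cycling T cells held within CD8 T cells is thus not shown.

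**Figure D4:**
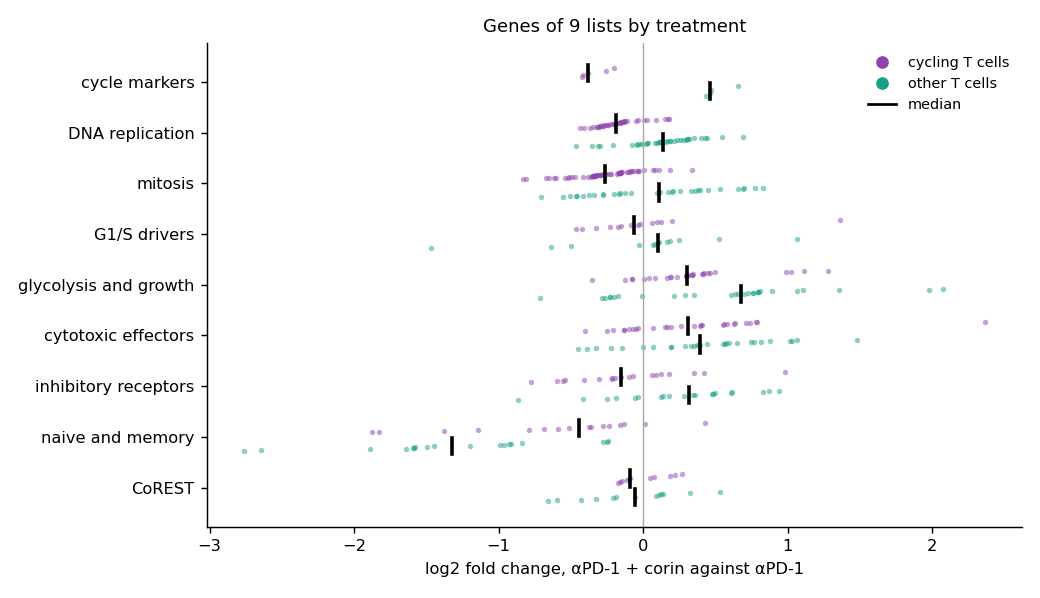
Log2 fold change of αPD-1 + corin against αPD-1 for each tested gene of 9 lists, in cycling T cells and in other T cells, with the median as a black bar. Naive and memory genes lie lower in other T cells (median -1.32) than in cycling T cells (-0.44), and all but 6 of 57 mitosis genes lie below 0 in cycling T cells (median -0.27). No gene passed the test in cycling T cells. In other T cells genes of several lists did, among them 12 naive and memory and 12 glycolysis and growth genes.

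The other T cells of the same samples gave a different count. Of 9796 genes tested there, 1.81% were higher and 2.59% lower in αPD-1 + corin (177 and 254 genes, edgeR adjusted p threshold of 0.05). Without αPD-1 sample 1 the counts were 3 and 20, and without αPD-1 + corin sample 3 they were 826 and 435. Naive and memory genes fell in 12 of 18 and rose in none, with a median of -1.32, and glycolysis and growth genes rose in 12 of 28 and fell in none, with a median of 0.68. The 12 neutrophil genes together were at 256 to 701 CPM against 1451 to 17087 CPM in these other T cells. The part of such transcripts in these list results was not tested. More cells stand behind the other T cell sums, and the counts of the 2 fits do not show that the effects differ.

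Lineage makeup was not held equal in what follows. Regulatory T cells made up 4.26%, 4.39% and 4.77% of other T cells with αPD-1 alone and 10.7%, 14.8% and 1.26% with αPD-1 + corin. No interaction was fitted within 1 lineage, so the part of makeup was not tested. The difference between the 2 fits was tested as an interaction, in 1 edgeR fit with the sample as a block. The interaction is the log2 fold change in cycling T cells minus that in other T cells. The interaction passed for 14 of 9872 genes, 0.142% of those tested, 9 with a positive and 5 with a negative difference. With RLE in place of TMM scaling 8 were positive and 13 negative, and leaving out 1 sample gave 1 to 82 genes, with 1 gene left without αPD-1 sample 2 and 82 without αPD-1 sample 3. The median over all genes was 0.07. CPM values were scaled within the cycling and within the other T cells, so they are compared between treatments only. Ccnd3 was at 179, 118 and 161 CPM in cycling and 386, 478 and 423 CPM in other T cells under αPD-1 alone. With αPD-1 + corin it was at 137, 99.1 and 130 CPM in cycling and 173, 136 and 158 CPM in other T cells. It fell in other T cells (log2 fold change -1.47, edgeR adjusted p = 0.00293), while the groups overlapped in cycling cells (interaction 1.20, SE 0.20, edgeR adjusted p = 0.0235). The quiescence factor Foxp1 gave 241, 164 and 240 against 200, 160 and 107 CPM in cycling and 823, 689 and 618 against 257, 243 and 213 CPM in other T cells (interaction 1.08, SE 0.20, edgeR adjusted p = 0.0341). Actn1, an actin crosslinker, was at 75.7, 43.4 and 45.6 against 70.0, 102 and 51.5 CPM in cycling and 143, 142 and 133 against 72.1, 98.9 and 52.5 CPM in other T cells (interaction 1.40, SE 0.23).

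Of the genes that passed and had UMIs in every library, Gzma had the largest positive interaction, at 2.61 (SE 0.40, edgeR adjusted p = 0.0235). In other T cells it was at 41.96, 50.8 and 117 CPM against 74.7, 30.2 and 63.6 CPM, which overlapped, whereas the groups were apart in cycling cells. With 1 Mki67 or Top2a UMI enough, the interaction of Gzma was 0.72 (edgeR adjusted p = 0.646). Ifitm1, an interferon-induced membrane protein gene, held 9, 0 and 6 UMIs against 227, 182 and 144 UMIs in cycling T cells and 141, 15 and 191 against 710, 444 and 416 UMIs in other T cells (interaction 2.33, SE 0.38), and with no upper limit on genes its interaction was 0.24 (edgeR adjusted p = 0.955). S100a9 and Fabp4, a fatty acid binding protein gene, also passed, with 0 and 1 UMIs in all cycling T cells under αPD-1 alone, so that their fitted differences depend on the prior count. Negative differences were seen for Ctla4 (-1.0), Samsn1, an adaptor that limits lymphocyte signalling (-1.11), Lgals1, which encodes galectin-1 (-0.70), and Ly6a, which encodes Sca-1 (-0.75). Lgals1 was at 2029, 1876 and 1729 CPM in cycling T cells under αPD-1 alone and 2214, 1791 and 2106 CPM in those of αPD-1 + corin. In other T cells it rose from 740, 794 and 818 to 1512, 1229 and 1526 CPM (log2 fold change 0.86, edgeR adjusted p = 0.0178). For Ctla4, other T cells were at 201, 240 and 196 against 215, 361 and 306 CPM, a difference in the opposite direction to that in cycling cells.

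By list, 2 naive and memory genes, Foxp1 and Actn1, passed the interaction in the positive direction and none in the negative, with a median of 0.75 over 18 genes. Tcf7 did not pass (interaction -0.33, SE 0.33, edgeR adjusted p = 0.805), and Lef1 gave 1.25 (edgeR adjusted p = 0.0987). The 5 markers had negative interactions with a median of -0.72, none past the threshold, which is given as a description. Mki67 and Top2a decided which T cells were cycling and which were other, so this contrast is no test of them. Lag3 at -1.11 and Havcr2 at -0.84 did not pass (edgeR adjusted p = 0.0561 and 0.0961).

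**Figure D5:**
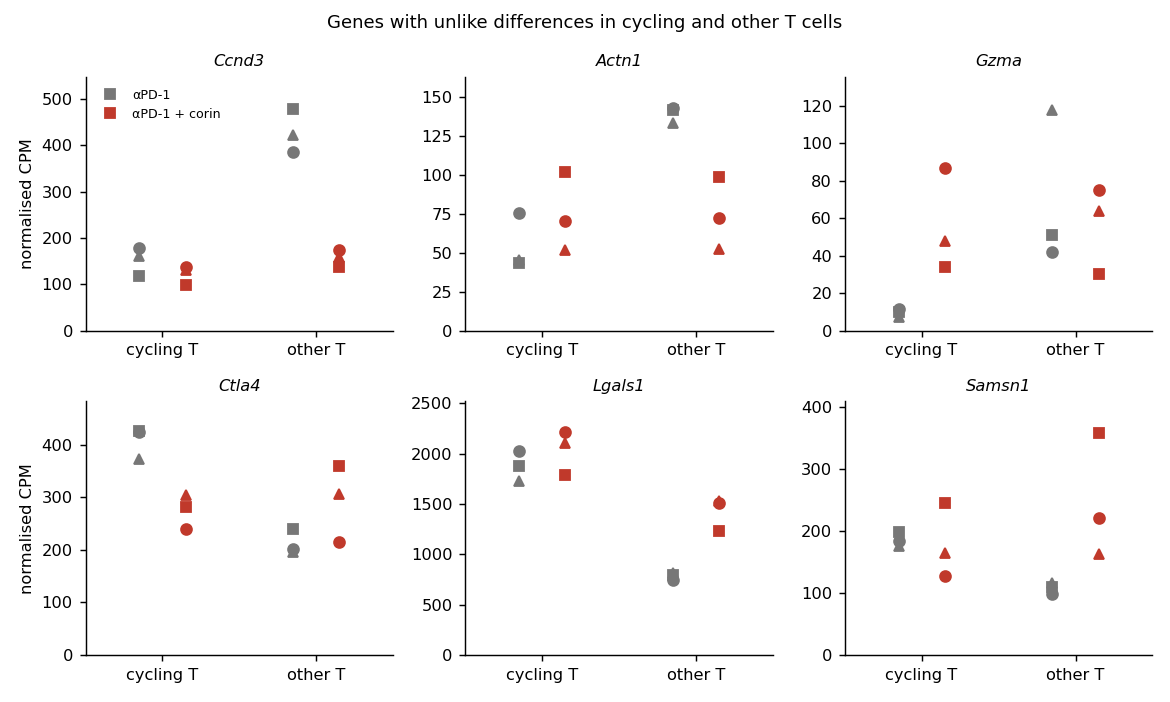
TMM-normalised CPM of 6 genes past the interaction threshold in cycling and other T cells of each sample (circle, square and triangle are samples 1, 2 and 3). Ccnd3 and Lgals1 separate the groups in other T cells and overlap in cycling T cells, whereas Gzma and Ctla4 separate them in cycling T cells.

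The T cell receptor gives a further view of which CD8 T cells were cycling, because each clone carries 1 rearranged β chain gene. The 5′ libraries held a Trbv UMI in 25 to 246 cycling CD8 T cells per sample. The most frequent gene was Trbv13-2 in αPD-1 sample 1 with 27.3% of these cells, Trbv19 in sample 2 with 37.3% and Trbv12-1 in sample 3 with 50%. With αPD-1 + corin it was Trbv19 in sample 1 with 44.0%, and Trbv31 in samples 2 and 3 with 64.5% (40 of 62 cells, 95% Wilson interval 52.1% to 75.3%) and 47.6% (117 of 246, 41.4% to 53.8%). Trbv31 was found in 0 of 33, 2 of 51 and 0 of 28 cycling CD8 T cells under αPD-1 alone and 0 of 25 of αPD-1 + corin sample 1, where a count of 0 allows up to 9.09%, 10.7% and 12%. Among other CD8 T cells of αPD-1 + corin samples 2 and 3, Trbv31 made up 40.0% and 39.9%. The α chain gene most often found with it differed between them, being Trav12-2 in sample 2 (20 cells) and Trav14n-3 in sample 3 (89 cells). The leading gene was the same in cycling and other CD8 T cells of all 6 samples, with a higher share among the cycling cells in each. These genes were chosen after their values were seen, and no test between the groups was made.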

How the data were processed

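Droplet libraries of CD45+ tumor cells from 6 samples, 3 per treatment, were analysed. The authors deposited UMI counts per gene and barcode; their processing notes name Cell Ranger 8.0, Seurat 5.0.11 and GRCm39, and nothing was normalised before deposit. No column held other samples. The members, gene lists and tests were chosen with earlier results of these data known. Raw counts of cycling T cells were summed per sample and compared in edgeR 4.0.16 by its quasi-likelihood test (R 4.3.3, limma 3.58.1, TMM scaling, low counts filtered, Benjamini-Hochberg adjusted p under 0.05). The interaction fit took cycling and other T cells with the sample as a term. For shares, exact two-sided permutation of the sample labels was used (scipy 1.17.1, Python 3.11.15, scanpy 1.11.5, numpy 2.4.6, pandas 2.3.3). For thinning, each cell was drawn down to a fixed number of UMIs and shallower cells were left out. Doublets were kept, and an alternative removed the top Scrublet scores at 0.4% per 1000 barcodes. Alternatives included RLE scaling, DESeq2 1.42.0, no filter, other limits and leaving out each sample. The scripts were tested on simulated data. Samples with the same number did not deviate together (correlations 0.099, -0.01 and -0.211), so numbers were not treated as pairs. 1 gene past the interaction threshold is counted but not reported here. Named genes were the largest differences past the threshold in each direction, list members past it and a fixed set of markers and regulators given whatever their result. Il1b, Cxcl2, S100a8, Rplp1, Zbtb20, Fabp4 and the genes marked so in the text were picked after their values were seen.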

Additional observations from a re-analysis of the deposited data

Results flagged for a closer look

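The edgeR interaction described in the report passed for 14 genes. Their treatment difference was unlike in the sums of cycling and of other T cells. The difference is given in log2 units, as the fold change in cycling minus that in other T cells. It was positive for Gzma (2.61), Ifitm1 (2.33), Actn1 (1.40), Ccnd3 (1.20), Zbtb20 (1.09), Foxp1 (1.08) and Rplp1 (0.48). It was negative for Samsn1 (-1.11), Ctla4 (-1.0), Ly6a (-0.75) and Lgals1 (-0.70). S100a9 (8.04) and Fabp4 (5.36) were also counted as positive, but they held 0 and 1 UMIs in all cycling T cells under αPD-1 alone. Their fitted differences depend on the prior count and are not read as unlike effects of corin. The other genes compare sums of mixed lineages, and the part of lineage makeup in their differences was not tested.

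The 9 of these that are reported here and were followed through the 14 or 15 alternatives kept their sign in each, but not their size. Ifitm1 was 0.24 and Actn1 0.81 with no upper limit on genes, Gzma 0.72 with at least 1 Mki67 and Top2a UMI and Actn1 0.67 with at least 4. Gzma passed in 12 of 15 (adjusted p 2.84e-08 to 0.646), Lgals1 in 11 (4.92e-07 to 0.0817) and Ccnd3 in 10 (1.00e-06 to 0.131). Ctla4 passed in 10 (4.92e-07 to 0.103) and Ly6a in 9 (7.64e-06 to 0.202). Actn1 passed in 8 (2.93e-05 to 0.449), Samsn1 in 8 (1.68e-06 to 0.169), Ifitm1 in 8 (6.71e-08 to 0.955) and S100a9 in 8 of 14 (7.10e-10 to 0.492). Each of the 9 lost its call without αPD-1 sample 2. S100a9 reads came with the neutrophil transcripts described in the report, and their part in this result was not tested.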

How the results depend on the processing

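The share of cycling cells was higher with αPD-1 + corin under all 16 alternatives among T cells (0.989 to 13.2 percentage points) and among CD8 T cells (1.81 to 17.5 points), with no overlap of the groups in 15 of 16 each. The alternatives that left out 1 sample could not bring in overlap or turn the direction, because the full groups did not overlap. Only the other alternatives bear on these counts. Differences that changed sign were those in regulatory T cells with at least 1 Mki67 and Top2a UMI (3.28 points), in conventional CD4 T cells at 1000 UMIs (-0.419), with at least 4 UMIs (-0.647) and when 1 sample was left out (-2.37 without αPD-1 sample 2, up to 5.79), in the CD8 share of cycling T cells at 1000 UMIs (-3.16) and when 1 sample was left out (-2.71 without αPD-1 + corin sample 3, up to 13.6), in the regulatory share of cycling T cells with at least 1 UMI (2.04) and when 1 sample was left out (0.788 without αPD-1 + corin sample 3, down to -5.33), and in the S phase share without other-lineage barcodes (-1.14). The regulatory share in cycling against other T cells was 3.20 points with no thinning and -1.87 to 0.241 with 1 sample left out, above 0 without αPD-1 + corin sample 1. The CD8 share in cycling against other T cells reached p = 0.03125 (exact sign-flip permutation) with no thinning (19.9 points), at 2000 UMIs (16.4), at a mitochondrial limit of 5% (13.3) and with at least 3 Cd3 UMIs (12.2).

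Counts of genes past the threshold moved as follows. In cycling T cells DESeq2 gave 52, no filter 515, the barcodes without other lineages 1 and leaving out a sample 0 to 221 (2 without αPD-1 + corin sample 1 and 221 without sample 3). In cycling CD8 T cells they were 35, 316, 1 and 0 to 155 (5, 2 and 155 without αPD-1 + corin samples 1, 2 and 3). For the interaction, at least 1 UMI gave 49, at least 4 UMIs 24, at least 3 Cd3 UMIs 3, barcodes without other lineages 24, no filter 151 and leaving out a sample 1 to 82 (3, 1 and 82 without αPD-1 samples 1, 2 and 3, and 40 and 6 without αPD-1 + corin samples 1 and 2). In other T cells barcodes without other lineages gave 703, no filter 1356 and leaving out a sample 23 to 1261 (23, 38 and 138 without αPD-1 samples 1, 2 and 3, and 285, 150 and 1261 without αPD-1 + corin samples 1, 2 and 3). The replicate block gave 19 genes in cycling T cells, 46 in cycling CD8 T cells and 127 in other T cells; the numbers were not shown to pair the samples. With no filter, 17927 genes were tested in cycling T cells and the median of all genes was 0.13, 0.14 and 0.11 in the cycling, cycling CD8 and interaction fits. The cause of these moves was not tested.

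Fold changes (log2) in cycling T cells that changed sign, none past the threshold, were as follows. Without other-lineage barcodes they were Cd8b1 0.030, Ifng 0.32, Havcr2 0.059, Ccnb1 0.035, Mcm5 0.12, Cdkn1b 0.21, Rcor1 -0.12, Hdac1 0.098 and Hdac2 -0.077. With at least 1 UMI they were Foxp3 0.52, Ccnb1 0.015, Mcm5 0.10, Kdm1a -0.085 and Rcor1 -0.067. With at least 4 UMIs they were Cdkn1b 0.12 and Hdac2 -0.063. With no upper limit on genes they were Mcm2 -0.11, Mcm3 -0.22, Ccnd2 0.073, Cdkn1b 0.045, Kdm1a -0.021 and Hdac2 -0.086. At the mitochondrial limit of 5% it was Mcm3 -0.021. With at least 3 Cd3 UMIs it was Cdkn1b 0.014. Without top Scrublet scores they were Cdkn1b 0.015 and Rcor1 -0.0096. In DESeq2 it was Cdkn1b 0.0012. With the replicate block they were Prf1 -0.048, Cdkn1b 0.0092 and Kdm1a -0.019. Leaving out 1 sample at a time gave -0.61 to 0.13 for Cd8a, -0.59 to 0.019 for Cd8b1, -1.60 to 0.42 for Foxp3, -0.24 to 0.69 for Prf1, -0.82 to 0.35 for Ifng, -0.067 to 0.10 for Mcm3, -0.096 to 0.053 for Mcm5, -0.30 to 0.11 for Ccnd2, -0.12 to 0.078 for Cdkn1b, -0.12 to 0.75 for Il2ra, -0.093 to 0.22 for Kdm1a, -0.013 to 0.16 for Rcor1 and -0.030 to 0.50 for Hdac2.

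A treatment fit in cycling regulatory T cells was not run, because fewer than 2 samples per group held 10 such cells. With 3 samples a group, a share cannot reach an exact p under 0.1, and the depth of 332039 to 2640630 UMIs per sum limits low genes.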
